A study of Mus musculus with 48 samples.

Results

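The Slc25 genes encode the mitochondrial carriers, the largest group of membrane transporters of the inner mitochondrial membrane, and their signals in mouse liver were compared between mice under timed sleep restriction (TSR) and undisturbed mice. Genes were chosen by their symbol on the array, which had to start with Slc25a and a digit, and a gene with several probe sets was taken by the one with the highest mean liver signal. This gave 46 probe sets of 42 genes, out of 21236 genes with a probe set of 1 symbol. The carriers exchange nucleotides, phosphate, carboxylates, amino acids, acylcarnitines, cofactors and metals between the cytosol and the mitochondrial matrix, most of them by swapping one solute for another. In the liver they join the cytosolic and mitochondrial steps of ATP supply, gluconeogenesis, the urea cycle, fatty acid oxidation and heme synthesis. The solutes of several members are not known with certainty, and these members are named here without a role, although a role group can hold them.

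Each of 24 Affymetrix Mouse Gene 1.0 ST arrays held the liver RNA of 1 mouse, and 3 mice were taken for each treatment and time point. All mice were males of the strain labelled Bl6J, 10 to 12 weeks old by the labels (the study's methods give another age), held in 12 h of light and 12 h of dark, with ZT0 as lights on. Under TSR, gentle handling prevented sleep between ZT0 and ZT6 on 5 days and, after 2 days with no handling, on up to 5 more. Control mice were undisturbed throughout. By the study's methods, sampling began on the evening before the last handling day. Livers of ZT13 and ZT19 would then precede the last handling, and those of ZT1 fall within it. Livers of both treatments were taken at ZT1, ZT7, ZT13 and ZT19, which gives 8 groups, and arrays labelled white adipose tissue were not used. The values are signals on a linear scale as normalized by the authors, differences are given as TSR minus control on the log2 scale, and adjusted p values come from limma's moderated tests with the Benjamini-Hochberg method over the 12538 probe sets tested (11230 genes), which had 1 symbol and, on average over the livers, more signal than the median one of all 28815. Calls are tests with an adjusted p under 0.05. Where a result is given without any of several arrays, each of them was left out on its own. A call kept only without some arrays was kept in those fits and in the fit of all arrays. Because an exact permutation test of 3 arrays against 3 cannot give a two-sided p below 0.1, calls at a single time point rest on the spread shared over the 8 groups. In whole tissue, fewer cells of a type and less RNA per cell cannot be told apart, and the precision is limited by the number of arrays.

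The array medians were 84.5 to 100.9 in control and 89.0 to 108.8 in TSR liver. Summed signals of the 6 hepatocyte markers measured were 49673 to 58304 on control arrays and 53023 to 62584 on TSR arrays, so the tissue label held on every array. On TSR ZT19 replicate 3 the summed signal of pancreatic acinar markers was 10354, against at most 1122 on any other array. In addition, 5 arrays stood apart, which were TSR ZT1 replicate 3, control ZT7 replicate 3 and every control array of ZT19. After centring each of the 12538 probe sets, these 5 correlated with each other at 0.54 to 0.90 and with the other 19 arrays at -0.68 to 0.32, and control ZT7 replicate 3 and TSR ZT1 replicate 3 correlated with the other arrays of their own groups at -0.22 to 0.0011. Leaving them out removes every control array of ZT19, so no ZT19 value can be given without them. A 24 h curve for control liver then has only ZT1, ZT7 and ZT13, and it passes through their means whatever they are. This limits every control rhythm and every difference in rhythm given below without these arrays. Arrays numbered 37 to 48 hold the control livers and arrays 1 to 12 the TSR livers, and therefore array number and treatment cannot be told apart. Among the control livers the array numbers follow the time points in order, and among the TSR livers they are mixed over them. In control liver time point and array order cannot be told apart either, which holds for every control rhythm below.

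Of the 42 carriers, 33 had a signal above the filter and were tested. Their mean liver signals lay between 98.1 and 5540 (Slc25a43 and the glutathione carrier Slc25a39). The other 9 (Slc25a2, Slc25a4, Slc25a14, Slc25a24, Slc25a29, Slc25a31, Slc25a34, Slc25a36 and Slc25a41) had mean signals of 44.1 to 92.8, and with the filter dropped 0 of them were called by limma in any of the 9 comparisons (lowest adjusted p = 0.126, 3 at an unadjusted p under 0.05 in some comparison), where the share of all 23726 probe sets called was 10.7% in mean level, 0.649%, 4.34%, 5.69% and 5.23% at ZT1, ZT7, ZT13 and ZT19, 5.78% for an effect that differed between time points, and 3.68%, 0.472% and 0.0548% for the rhythms in control liver, in TSR liver and their difference. Among them were the ADP/ATP translocases of muscle and heart (Slc25a4) and of germ cells (Slc25a31) and the brain carrier Slc25a14, while the widely expressed translocase Slc25a5 was tested. The authors' presence calls marked 19 of the 33 tested carriers as present on all 24 arrays. Slc25a18, Slc25a27 and Slc25a35 were marked present on 0 arrays, Slc25a39 on 1, Slc25a40 on 3, Slc25a20 and Slc25a25 on 5 and Slc25a43 on 12, although the mean signals of Slc25a39, Slc25a20 and Slc25a25 were 5540, 1319 and 724. For Slc25a18, Slc25a20 and Slc25a35 differences are therefore given without a fold.

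Averaged over the 4 time points, 4 of the 33 carriers were lower in TSR liver and 0 were higher. They were mitoferrin 1 (Slc25a37), Slc25a35, the branched-chain amino acid carrier Slc25a44 and Slc25a16, with differences from -0.43 to -0.11. Of all probe sets tested, 13.4% were called higher and 13.4% lower, 26.7% in either direction, against 12.1% of the carriers. At an unadjusted p under 0.05 there were 8 carriers in the 2 directions together. The median difference was 0.02 for the carriers and 0.02 for all probe sets tested, and 20 carriers lay above 0 and 13 below it. One carrier was called higher without TSR ZT13 replicate 2 (the coenzyme A carrier Slc25a42) or without TSR ZT19 replicate 2 (the phosphate carrier Slc25a3). The number called lower was 1 without control ZT7 replicate 1, 2 without any of TSR ZT1 replicates 1 and 2, TSR ZT7 replicates 2 and 3 and TSR ZT19 replicate 3. Without the 5 arrays that stood apart the mean level is the mean over ZT1, ZT7 and ZT13 only, here and for each carrier below, and on that scale 2 carriers were called higher (Slc25a3 and mitoferrin 2, Slc25a28) and 4 lower (Slc25a37, Slc25a35, Slc25a44 and the ATP-Mg/phosphate carrier Slc25a23).

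**Figure D1:**
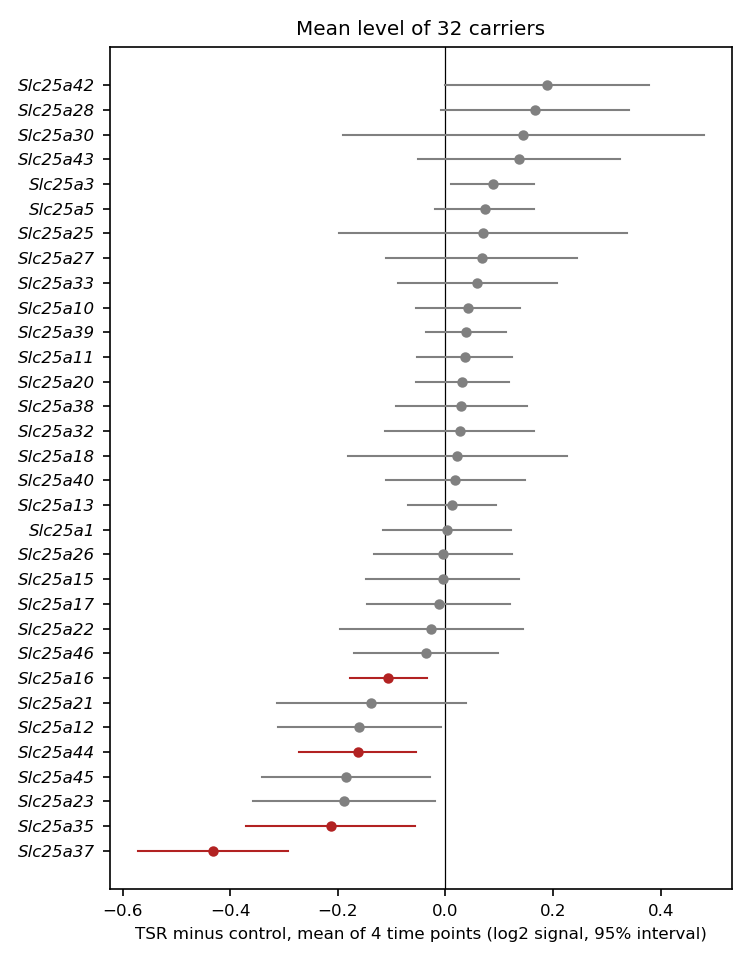
Difference in mean level between TSR and control liver (log2 signal, x axis) for 32 of the 33 carriers tested, with its 95% interval. Red points mark the 4 carriers with an adjusted p under 0.05, all of which lie below 0, with Slc25a37 at -0.43 farthest from 0.

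Of the single time points, ZT1 had 2 called carriers, ZT7 had 4, ZT13 had 6 and ZT19 had 2. At ZT1 the folate/FAD carrier Slc25a32 was higher and Slc25a35 lower, which is 6.06% of the carriers against 2.80% of all probe sets tested (1.70% higher and 1.10% lower). At ZT7 the pyrimidine nucleotide carrier Slc25a33 was higher and Slc25a37, the oxodicarboxylate carrier Slc25a21 and Slc25a16 were lower, 12.1% against 14.3% (7.02% higher and 7.28% lower). At ZT13 Slc25a28, the carnitine/acylcarnitine carrier Slc25a20 and Slc25a3 were higher and Slc25a37, Slc25a23 and Slc25a44 lower, 18.2% against 18% (8.62% higher and 9.43% lower). At ZT19 Slc25a42 was higher and Slc25a32 lower, 6.06% against 14.7% (8.59% higher and 6.06% lower). Unadjusted p values were under 0.05 for 5, 9, 11 and 8 carriers at the 4 time points in order. The carriers' median differences were 0.08, -0.00, 0.03 and -0.03 at ZT1, ZT7, ZT13 and ZT19, beside 0.00, 0.01, 0.01 and 0.02 for all probe sets tested.

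These counts moved when each array was left out on its own. At ZT1 the count was 0 without any of control ZT1 replicates 2 and 3 and TSR ZT1 replicate 3, 1 without any of control ZT1 replicate 1, control ZT7 replicate 2, control ZT13 replicates 1 to 3, control ZT19 replicates 1 to 3, TSR ZT1 replicates 1 and 2, TSR ZT7 replicate 2, TSR ZT13 replicates 1 and 3 and TSR ZT19 replicate 1. At ZT7 it was 0 without TSR ZT7 replicate 3, 1 without any of control ZT7 replicates 1 and 3 and TSR ZT7 replicate 2, 2 without any of control ZT1 replicate 1, control ZT7 replicate 2, control ZT13 replicate 1, control ZT19 replicates 1 and 3, TSR ZT1 replicate 2, TSR ZT7 replicate 1 and TSR ZT19 replicate 1. For ZT13 the number was 2 without control ZT13 replicate 3, 3 without any of control ZT13 replicate 1 and TSR ZT13 replicate 2. For ZT19 it was 0 without any of control ZT19 replicates 1 to 3 and TSR ZT19 replicate 1, 1 without any of control ZT1 replicates 1 and 3, control ZT7 replicates 1 and 2, control ZT13 replicates 1 to 3, TSR ZT1 replicate 2, TSR ZT7 replicate 2 and TSR ZT19 replicates 2 and 3. Without the 5 arrays that stood apart the counts were 0 at ZT1, 0 at ZT7 and 6 at ZT13. Without TSR ZT19 replicate 3 they were 2, 5, 8 and 1. The ordinary test of each probe set takes the spread from the 6 arrays of 1 time point alone. It called 0 carriers at ZT1, ZT7 and ZT13 and 3 at ZT19. For the 6 carriers called by limma at ZT13 its adjusted p values were 0.118 to 0.229.

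**Figure D2:**
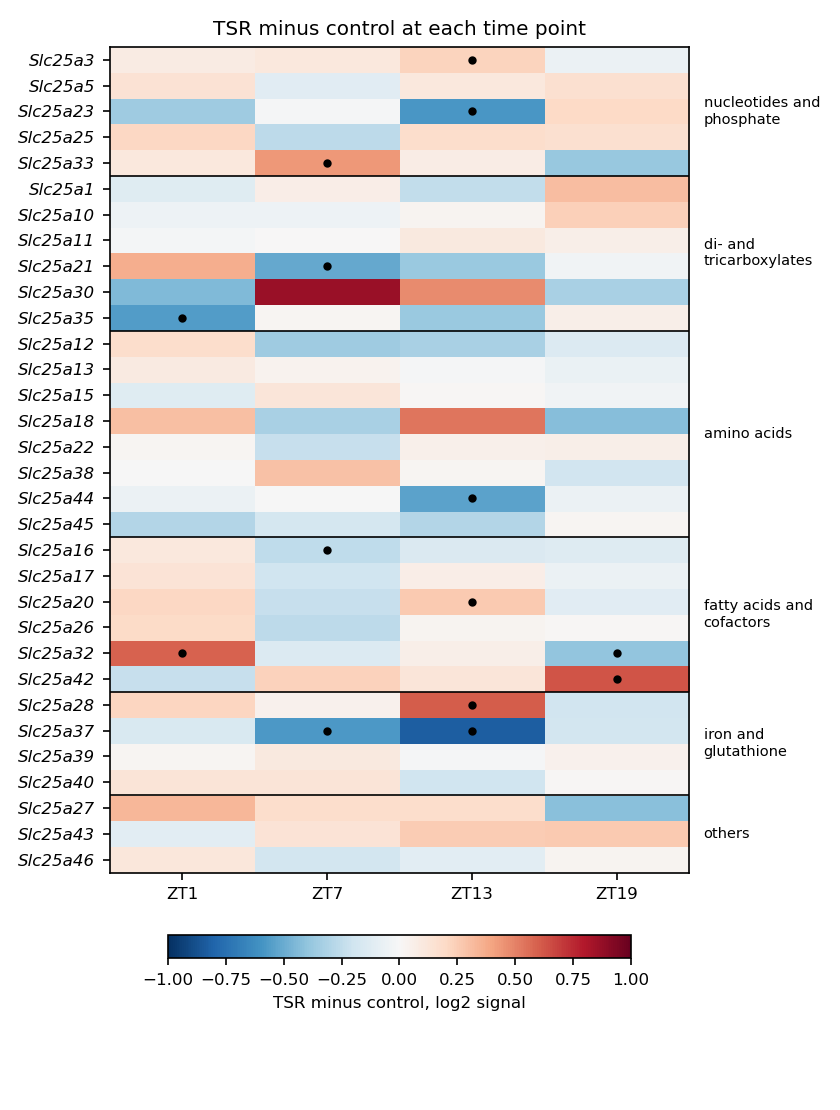
TSR minus control (log2 signal, colour from blue at -1 to red at 1) for 32 of the 33 carriers tested (rows, ordered by role group) at ZT1, ZT7, ZT13 and ZT19 (columns), each from 3 arrays against 3. Dots mark an adjusted p under 0.05, which 2, 4, 6 and 2 carriers reached in the 4 columns, and most rows change colour between columns.

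The size of the TSR effect differed between the time points for 8 of the 33 carriers, 24.2% against 20.5% of all probe sets tested, in an F-test of the 3 differences between the 4 effects. These were Slc25a32, the glutamate carrier Slc25a18, Slc25a21, Slc25a33, Slc25a37, Slc25a44, Slc25a20 and Slc25a16. At an unadjusted p under 0.05 there were 15. The median distance between a carrier's largest and smallest effect was 0.47, beside 0.45 over all probe sets tested. For Slc25a32 that distance was 0.98 (adjusted p = 0.0127), with an effect above 0 at ZT1 and below 0 at ZT19, whereas for Slc25a37 the distance was 0.67 (adjusted p = 0.0356) with all 4 effects below 0. The calls of Slc25a20 and Slc25a32 were kept with each of the 24 arrays left out in turn. That of Slc25a18 was lost without any of control ZT1 replicates 1 and 2, control ZT13 replicates 1 and 3, control ZT19 replicates 1 to 3, TSR ZT7 replicate 1, TSR ZT13 replicates 2 and 3 and TSR ZT19 replicates 1 and 2 (adjusted p up to 0.0651). That of Slc25a33 was lost without any of control ZT1 replicate 1, control ZT7 replicates 1 and 2, control ZT13 replicate 1, control ZT19 replicates 1 to 3, TSR ZT1 replicate 3, TSR ZT7 replicates 2 and 3 and TSR ZT19 replicates 1 and 3 (adjusted p up to 0.0822). That of Slc25a37 was lost without any of control ZT1 replicates 1 to 3, control ZT13 replicates 1 to 3, control ZT19 replicates 1 to 3, TSR ZT1 replicates 2 and 3 and TSR ZT13 replicate 2 (adjusted p up to 0.0624). For Slc25a16 the call was kept only without any of control ZT7 replicate 2, TSR ZT1 replicate 1, TSR ZT7 replicate 1, TSR ZT13 replicates 1 and 3 and TSR ZT19 replicate 3 and lost without any of the other 18 arrays (adjusted p up to 0.111). For Slc25a21 the call was kept only without any of control ZT7 replicate 2, control ZT13 replicate 2, TSR ZT13 replicates 1 to 3 and TSR ZT19 replicates 2 and 3 and lost without any of the other 17 arrays (adjusted p up to 0.0984). For Slc25a44 the call was kept only without any of control ZT7 replicates 1 to 3, TSR ZT1 replicates 1 and 2, TSR ZT7 replicate 3, TSR ZT13 replicate 1 and TSR ZT19 replicate 3 and lost without any of the other 16 arrays (adjusted p up to 0.0842). The number of calls was 2 without any of control ZT13 replicate 1 and control ZT19 replicates 1 to 3, 3 without any of control ZT1 replicates 1 and 2, control ZT13 replicate 3 and TSR ZT19 replicate 1, 4 without any of control ZT1 replicate 3, TSR ZT1 replicate 3 and TSR ZT7 replicate 2, 5 without any of control ZT13 replicate 2, TSR ZT1 replicate 2, TSR ZT7 replicate 1, TSR ZT13 replicate 2 and TSR ZT19 replicate 2, 13 without TSR ZT19 replicate 3. Without the 5 arrays that stood apart the test compares the effects of ZT1, ZT7 and ZT13 alone, and none of the 33 was called (adjusted p values of 0.167 to 0.454 for these 8 carriers). In that narrower test the distances were 0.88 for Slc25a21, 0.66 for Slc25a37, 0.48 for Slc25a44, 0.42 for Slc25a20 and 0.31 for Slc25a16, beside 0.46 for Slc25a32, 0.64 for Slc25a18 and 0.41 for Slc25a33.

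Carriers of nucleotides and phosphate feed ATP synthesis and set the adenine nucleotide pool of the matrix. Of the 10 measured, 5 were tested. Slc25a23, an ATP-Mg/phosphate carrier (probe set 10452257), had ZT13 signals of 3786, 3417 and 3604 on the control arrays and 2935, 1780.1 and 2646 on the TSR arrays. The 3 TSR arrays lay below the 3 control arrays, and TSR replicate 2 lay farthest down. The difference was -0.58 (SE 0.16, n = 3 against 3, adjusted p = 0.0207), a level 1.50-fold higher in control than in TSR liver. This call was lost without any of control ZT13 replicates 1 and 3 and TSR ZT13 replicate 2 (adjusted p up to 0.0912). Its signals over the rest of the day were 3900.4, 3807 and 3977 at ZT1, 3774, 3580.3 and 2595 at ZT7 and 2964, 2965 and 2899.9 at ZT19 in control liver. In TSR liver they were 3271, 3433 and 2510.3 at ZT1, 3163, 3491 and 3095 at ZT7 and 3542, 3759.6 and 2896 at ZT19. Control ZT7 replicate 3 and TSR ZT1 replicate 3, both among the arrays that stood apart, were the lowest of their groups, and the ZT13 difference does not rest on any of those arrays. Without them it was -0.58 (adjusted p = 0.0141).

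Slc25a3 carries the phosphate used by ATP synthase. Its ZT13 signals were 1419.6, 1529 and 1404 on the control arrays and 1682, 1655 and 1731 on the TSR arrays, with no overlap. TSR liver was higher by 0.22 (SE 0.07, n = 3 against 3, adjusted p = 0.0447), which is 1.17-fold. The call was kept only without any of control ZT7 replicates 2 and 3, TSR ZT1 replicate 3 and TSR ZT19 replicates 2 and 3 and lost without any of the other 19 arrays (adjusted p up to 0.136). Without the arrays that stood apart the difference was 0.22 (adjusted p = 0.0574). Slc25a33, a pyrimidine nucleotide carrier, gave ZT7 signals of 129, 133 and 147 on the control arrays and 163, 184 and 207 on the TSR arrays. All TSR arrays were above all control arrays at this time. The difference was 0.44 (SE 0.14, n = 3 against 3, adjusted p = 0.0447), 1.35-fold. At ZT19 the order was the other way round, with signals of 168, 154 and 167 on the control arrays and 118, 147 and 114 on the TSR arrays, and the difference of -0.38 did not pass (adjusted p = 0.0742). Its effect differed between time points, with a distance of 0.81 between the largest and the smallest (adjusted p = 0.0397). The ZT7 call was kept only without any of control ZT1 replicates 2 and 3, control ZT13 replicate 3, TSR ZT1 replicates 1 and 3, TSR ZT13 replicates 1 to 3 and TSR ZT19 replicates 2 and 3 and lost without any of the other 14 arrays (adjusted p up to 0.173). It was also lost without the arrays that stood apart, where the difference was 0.49 (adjusted p = 0.1). Slc25a5 and Slc25a25, the other 2 tested members of this group, were not called in any comparison.

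Slc25a30, the kidney mitochondrial carrier, had the largest 24 h amplitude of the 33 carriers in TSR liver and also in control liver. The gene lies at chr14:75757534-75787037 on the minus strand in GRCm38.p6, and probe set 10421648 was its only one. In control liver its signals were 229, 419.5 and 471 at ZT1, 345, 249 and 429.6 at ZT7, 161, 268 and 399 at ZT13, and 224, 156 and 217 at ZT19. In TSR liver they were 257, 375 and 188 at ZT1, 492, 695 and 653 at ZT7, 302, 369 and 416 at ZT13, and 205, 147 and 129 at ZT19. The TSR arrays were highest at ZT7, where all 3 lay above the 3 control arrays, and lowest at ZT19, and at ZT1, ZT13 and ZT19 the treatments overlapped. A 24 h curve fitted to the 12 TSR arrays had an amplitude of 1.00 on the log2 scale and a fitted peak at 7.87 h (adjusted p = 0.00648). The ZT7 mean of TSR liver was 3.86 times its ZT19 mean. For the 12 control arrays the curve had an amplitude of 0.45 on the log2 scale and a fitted peak at 4.91 h (adjusted p = 0.214), and the highest mean (ZT1) was 1.81 times the lowest (ZT19). This control amplitude lay beside 0.44 for Slc25a22, and without the arrays that stood apart it was 0.24 (adjusted p = 0.663). That the rhythm was called in one treatment and not in the other does not show that the rhythms differed, and the test of the difference itself did not pass (amplitude of the difference 0.75, adjusted p = 0.17).

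The call of a Slc25a30 rhythm in TSR liver was kept with each of the 24 arrays left out in turn, with adjusted p values of 0.00648 to 0.0232. Without the arrays that stood apart the amplitude was 0.98 (adjusted p = 0.0074), and without TSR ZT19 replicate 3 it was 0.94 (adjusted p = 0.0104). No comparison of Slc25a30 between treatments passed. The difference at ZT7 was 0.87 (SE 0.32, n = 3 against 3, adjusted p = 0.0742), 1.82-fold higher in TSR liver, and the mean level differed by 0.14 (adjusted p = 0.523). At ZT1 the estimate was -0.44 (adjusted p = 0.457), at ZT13 0.47 (adjusted p = 0.296) and at ZT19 -0.32 (adjusted p = 0.512). The effects spanned 1.31 between time points (adjusted p = 0.0829), which passed only without control ZT1 replicate 1 (adjusted p = 0.0473). Without the arrays that stood apart the ZT7 difference was 1.05 (adjusted p = 0.0881), the mean difference over the other 3 time points 0.44 (adjusted p = 0.104) and the amplitude of the difference in rhythm 1.08 (adjusted p = 0.219), and none of these passed.

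**Figure D3:**
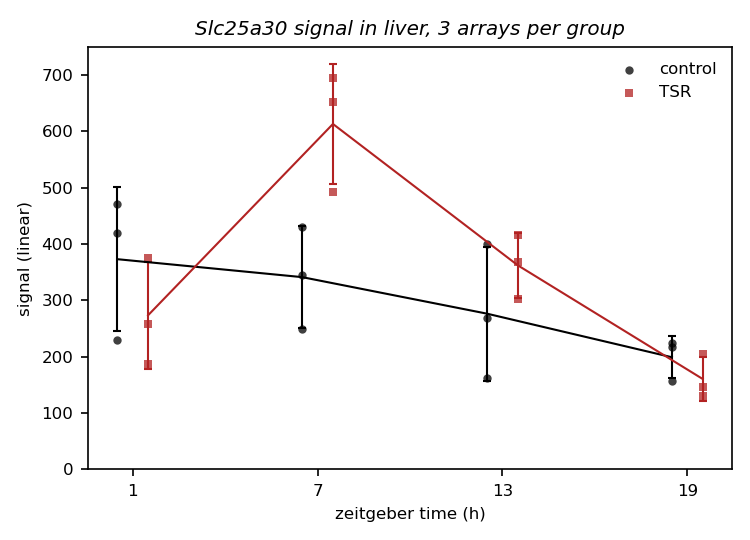
Slc25a30 signal (linear scale, y axis) on each of the 24 liver arrays against zeitgeber time (h, x axis), with control as black circles and TSR as red squares. Lines join the means of 3 arrays and bars are SD, and the 3 TSR arrays of ZT7 lie between 492 and 695, above the control arrays of that time at 249 to 429.6.

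The promoter of Slc25a30 is shown because this gene carried the only rhythm called in TSR liver. RefSeq (GRCm38.p6) places the 300 bases from 250 before to 50 after its start at chr14:75786988-75787287 on the minus strand, and the sequence below is written 5′ to 3′ along the gene, with no capitals since none of the motifs searched was in it.
Slc25a30 promoter: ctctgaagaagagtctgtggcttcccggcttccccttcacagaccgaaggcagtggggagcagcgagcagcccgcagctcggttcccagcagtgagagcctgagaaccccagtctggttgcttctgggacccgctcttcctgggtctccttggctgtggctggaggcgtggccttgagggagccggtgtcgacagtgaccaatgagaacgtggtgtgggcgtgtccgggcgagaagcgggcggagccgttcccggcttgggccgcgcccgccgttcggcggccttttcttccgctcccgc
The 5 motifs were the E-box CACGTG, the D-box TTATGTAA, the nuclear receptor site AGGTCA, the palindromic glucocorticoid response element and the cAMP element TGACGTCA, each read on both strands, and their absence from these letters says nothing more than that.

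Carriers of di- and tricarboxylates move intermediates of the citric acid cycle. In this role group 6 of the 8 measured were tested, Slc25a30 among them. The group also holds members whose solutes are not known with certainty, such as Slc25a30, Slc25a34 and Slc25a35. Slc25a21, the oxodicarboxylate carrier of lysine and tryptophan breakdown, had ZT7 signals of 246, 223 and 233 on the control arrays and 156, 169 and 167 on the TSR arrays. No TSR array reached the lowest control array. The difference was -0.51 (SE 0.17, n = 3 against 3, adjusted p = 0.0462), with control 1.43-fold higher. At ZT1 its signals were 204, 167 and 186 on the control arrays and 238, 238 and 237 on the TSR arrays, the opposite order, with a difference of 0.36 that did not pass (adjusted p = 0.24). Its effect differed between time points (distance 0.87, adjusted p = 0.042). The call at ZT7 was kept only without any of control ZT13 replicates 2 and 3, control ZT19 replicate 2, TSR ZT1 replicate 3, TSR ZT13 replicates 2 and 3 and TSR ZT19 replicates 2 and 3 and lost without any of the other 16 arrays (adjusted p up to 0.129). With the arrays that stood apart left out it was -0.51 (adjusted p = 0.131).

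Slc25a35 had the lowest signals among the called carriers and was marked present on no array, so its differences compare dim signals. Control arrays read 164, 152 and 148 at ZT1, 131, 106 and 110.4 at ZT7, 119, 126 and 109.9 at ZT13, and 128, 148 and 131 at ZT19. TSR arrays read 107, 98.1 and 110.3 at ZT1, 157, 107 and 95.1 at ZT7, 101, 84.8 and 89.7 at ZT13, and 145, 166 and 116 at ZT19. At ZT1 and ZT13 the 3 TSR arrays lay below the 3 control arrays, and at ZT7 and ZT19 the treatments overlapped. The ZT1 difference was -0.56 (SE 0.15, n = 3 against 3, adjusted p = 0.0498). The difference in mean level was -0.21 (SE 0.08, n = 12 against 12, adjusted p = 0.0417). At ZT1 the call was kept only without any of control ZT7 replicates 1 and 3, TSR ZT7 replicates 1 and 3, TSR ZT13 replicate 2 and TSR ZT19 replicates 2 and 3 and lost without any of the other 17 arrays (adjusted p up to 0.15). For the mean level it was kept only without any of control ZT7 replicates 2 and 3, control ZT13 replicate 3, control ZT19 replicate 1, TSR ZT1 replicate 3, TSR ZT7 replicate 1, TSR ZT13 replicate 1 and TSR ZT19 replicates 1 and 2 and lost without any of the other 15 arrays (adjusted p up to 0.0825). Without the arrays that stood apart the ZT1 difference was -0.59 (adjusted p = 0.171) and the mean difference -0.33 (adjusted p = 0.0309). Control liver also showed a rhythm of Slc25a35, with an amplitude of 0.23 on the log2 scale and a fitted peak at 23 h (adjusted p = 0.0407), and in TSR liver the amplitude was 0.17 (adjusted p = 0.623). The rhythm call was lost without any of control ZT1 replicates 1 to 3, control ZT7 replicate 2, control ZT13 replicates 1 and 3 and control ZT19 replicates 2 and 3 (adjusted p up to 0.0906).

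Slc25a10, the dicarboxylate carrier that exchanges malate and succinate for phosphate, had in control liver a rhythm with an amplitude of 0.18 on the log2 scale and a fitted peak at 10.4 h (adjusted p = 0.0385). Control signals were 1043, 1061 and 1022 at ZT1, 1156, 1262 and 1094 at ZT7, 1378, 1206 and 1230.4 at ZT13, and 963, 1019 and 1018 at ZT19. They were highest at ZT13 and lowest at ZT19. The TSR amplitude was 0.18 (adjusted p = 0.163), and the rhythms were not shown to differ (adjusted p = 0.413). The call in control liver was lost without any of control ZT1 replicates 1 to 3, control ZT7 replicates 1 and 2, control ZT13 replicates 1 to 3 and control ZT19 replicates 1 to 3 (adjusted p up to 0.0833). Leaving out the arrays that stood apart gave an adjusted p of 0.0878. Slc25a1, the citrate carrier that supplies cytosolic acetyl groups, and Slc25a11, the oxoglutarate carrier of the malate-aspartate shuttle, were not called in any comparison.

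Carriers of amino acids serve the urea cycle, the malate-aspartate shuttle and glutamate breakdown, and 8 of the 10 measured were tested. Slc25a44, which brings branched-chain amino acids into the matrix (probe set 10499372, chr3:88410494-88425141), read 1259, 1206 and 1221 at ZT1, 1239.8, 1098 and 1012 at ZT7, 1339.8, 1281 and 1271 at ZT13, and 1234, 1267 and 1334 at ZT19 in control liver. In TSR liver it read 1255, 1119.7 and 1168 at ZT1, 1244, 1117 and 988 at ZT7, 1068, 828 and 814 at ZT13, and 1262, 1295 and 1129.8 at ZT19. The 3 TSR arrays of ZT13 were below every control array of that time, and replicates 2 and 3 were the lowest of all 24 arrays, while at the other times the treatments overlapped. The ZT13 difference was -0.53 (SE 0.10, n = 3 against 3, adjusted p = 0.00401), control 1.45-fold above TSR. Over the 4 time points it was -0.16 (SE 0.05, n = 12 against 12, adjusted p = 0.0273), 1.12-fold. At ZT13 the call was kept with each of the 24 arrays left out in turn (adjusted p from 0.00165 to 0.0201), and without the arrays that stood apart the difference was -0.53 (adjusted p = 0.00743), while the ordinary test of the probe set gave an adjusted p of 0.145. The call on the mean level was lost without any of control ZT7 replicate 1, TSR ZT1 replicate 2, TSR ZT7 replicate 3 and TSR ZT19 replicate 3 (adjusted p up to 0.0562). With those that stood apart left out the mean difference was -0.22 (adjusted p = 0.032). The effect of TSR differed between time points by 0.53 (adjusted p = 0.0386).

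Slc25a22 and Slc25a18 both carry glutamate into the matrix, where it feeds glutamate dehydrogenase. Slc25a22 (probe set 10569168, chr7:141429749-141437874) gave control signals of 1549.95, 1528 and 1437 at ZT1, 2068, 2078 and 1762 at ZT7, 1405, 1220.4 and 1286 at ZT13, and 1024, 1084 and 1155 at ZT19. TSR signals were 1624, 1591 and 1379.9 at ZT1, 1207, 1983 and 1959 at ZT7, 1627, 1370.4 and 1094 at ZT13, and 1207, 1247 and 957 at ZT19. The control arrays of ZT7 lay above all other control arrays and those of ZT19 below them, and TSR ZT7 replicate 1 read lower than the other 2 arrays of its group. Its rhythm in control liver had an amplitude of 0.44 on the log2 scale and a fitted peak at 6.08 h (adjusted p = 0.000367), and the ZT7 mean was 1.81 times the ZT19 mean. This call was kept with each of the 24 arrays left out in turn (adjusted p from 0.000287 to 0.00245). Without the arrays that stood apart the amplitude was 0.58 (adjusted p = 0.00531), from ZT1, ZT7 and ZT13 alone. In TSR liver the amplitude was 0.30 (adjusted p = 0.194), and the difference between the rhythms did not pass (adjusted p = 0.705). Slc25a18 was marked present on no array. Its control signals were 108, 117 and 148 at ZT1, 125, 126 and 198 at ZT7, 131, 143 and 115 at ZT13, and 251, 212 and 222 at ZT19. Its TSR signals were 136, 133 and 194 at ZT1, 105, 125 and 120.4 at ZT7, 155, 196 and 218 at ZT13, and 141, 158 and 217 at ZT19. The control arrays of ZT19 were its highest, and all of them stand apart, as does control ZT7 replicate 3, the highest of its group. The difference was 0.54 at ZT13 (adjusted p = 0.06) and -0.43 at ZT19 (adjusted p = 0.133), and the effects spanned 0.97 (adjusted p = 0.0361, and 0.294 without the arrays that stood apart). The aspartate/glutamate carriers Slc25a12 (aralar) and Slc25a13 (citrin), the ornithine carrier Slc25a15 of the urea cycle, the glycine carrier Slc25a38 and Slc25a45 were not called in any comparison.

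All 7 measured members of the group of fatty acid and cofactor carriers were tested, among them Slc25a16, which is named without a role. Slc25a32 carries folate or FAD into the matrix (probe set 10428328, chr15:39091230-39112720). Control signals were 261, 230.3 and 243 at ZT1, 317, 327 and 407 at ZT7, 363, 386 and 375 at ZT13, and 365, 345 and 370.1 at ZT19. TSR signals were 313, 345 and 457 at ZT1, 277, 315 and 362 at ZT7, 331, 398 and 449 at ZT13, and 269, 279 and 273 at ZT19. At ZT1 all TSR arrays lay above the control arrays, at ZT19 all lay below them, and at ZT7 and ZT13 they overlapped. The difference was 0.59 (SE 0.13, n = 3 against 3, adjusted p = 0.0244) at ZT1, 1.50-fold. At ZT19 it was -0.40 (SE 0.13, n = 3 against 3, adjusted p = 0.04996), control 1.32-fold above TSR. The ZT1 call was lost without any of control ZT1 replicates 2 and 3 and TSR ZT1 replicate 3 (adjusted p up to 0.124), and without the arrays that stood apart the difference was 0.43 (adjusted p = 0.14). The ZT19 call was kept only without any of control ZT7 replicate 3, TSR ZT1 replicates 1 and 3, TSR ZT7 replicates 1 and 3 and TSR ZT13 replicates 1 to 3 and lost without any of the other 16 arrays (adjusted p up to 0.131). It rests on control arrays that stood apart, and without the pancreatic-marker array TSR ZT19 replicate 3 it was -0.39 (adjusted p = 0.0947). In control liver Slc25a32 had an amplitude of 0.31 on the log2 scale and a fitted peak at 13.3 h (adjusted p = 0.0252), a call that was lost without any of control ZT1 replicates 1 to 3 (adjusted p up to 0.0768). With the arrays that stood apart left out this amplitude was 0.32 (adjusted p = 0.00379). For TSR liver the amplitude was 0.11 (adjusted p = 0.756) and the difference in rhythm did not pass (adjusted p = 0.399).

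Slc25a42 brings coenzyme A into the matrix (probe set 10579199, chr8:70184340-70212281). Its control signals were 509.8, 603 and 475 at ZT1, 652, 573 and 434 at ZT7, 405, 334 and 374 at ZT13, and 330.5, 312 and 356 at ZT19. In TSR liver the signals were 481, 516 and 366 at ZT1, 528, 646 and 772 at ZT7, 439.9, 303 and 488 at ZT13, and 554, 535 and 457 at ZT19. At ZT19 the 3 TSR arrays lay above the 3 control arrays, and the treatments overlapped at the other times. The ZT19 difference was 0.63 (SE 0.18, n = 3 against 3, adjusted p = 0.0288), 1.55-fold. This call was lost without any of control ZT19 replicates 1 to 3 and TSR ZT19 replicates 1 and 2 (adjusted p up to 0.0967), and without TSR ZT19 replicate 3 the difference was 0.71 (adjusted p = 0.0404). All control arrays of that time belong to those that stood apart, so no value can be given without them. Control liver had a rhythm with an amplitude of 0.44 on the log2 scale and a fitted peak at 4.63 h (adjusted p = 0.00627), and its ZT7 mean was 1.64 times its ZT19 mean. The call was kept with each of the 24 arrays left out in turn (adjusted p from 0.000651 to 0.0205), and without the arrays that stood apart the amplitude was 0.54 (adjusted p = 0.0147). The TSR amplitude was 0.18 (adjusted p = 0.636), and the rhythms were not shown to differ (adjusted p = 0.58).

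Slc25a20 exchanges acylcarnitines for carnitine across the inner membrane, the step that brings long-chain fatty acids to oxidation. Its ZT13 signals were 1340.04, 1302 and 1254 on the control arrays and 1556, 1665 and 1461 on the TSR arrays. They did not overlap, although it was marked present on 1 of these arrays. The difference was 0.26 (SE 0.08, n = 3 against 3, adjusted p = 0.0354). The call was lost without any of control ZT13 replicates 1 to 3 and TSR ZT13 replicates 1 and 2 (adjusted p up to 0.112), and without the arrays that stood apart the difference was 0.26 (adjusted p = 0.0367). At ZT7 TSR liver lay on the other side, with signals of 1323, 1315 and 1528 on the control arrays and 1196, 1119 and 1233 on the TSR arrays and a difference of -0.23, which did not pass (adjusted p = 0.0683). Its effects differed between time points, spanning 0.49 (adjusted p = 0.0177, and 0.167 without the arrays that stood apart). Slc25a16 gave control signals of 853, 827 and 831 at ZT1, 999.8, 934 and 1008 at ZT7, 943, 969 and 995 at ZT13, and 1026, 975 and 947 at ZT19. TSR signals of Slc25a16 were 857, 904 and 945 at ZT1, 876, 760.2 and 829.6 at ZT7, 898, 851 and 884 at ZT13, and 902, 930.2 and 859 at ZT19. TSR arrays lay below the control arrays of the same time at ZT7, ZT13 and ZT19 and above them at ZT1, and over all time points the treatments overlapped. The ZT7 difference was -0.26 (SE 0.07, n = 3 against 3, adjusted p = 0.0192), control 1.19-fold above TSR, and the mean difference -0.11 (SE 0.03, adjusted p = 0.0283), 1.08-fold. At ZT7 the call was lost without any of control ZT7 replicates 1 and 3 and TSR ZT7 replicates 2 and 3 (adjusted p up to 0.0903). On the mean level it was lost without any of control ZT7 replicate 1, control ZT19 replicate 1, TSR ZT1 replicate 1 and TSR ZT7 replicate 2 (adjusted p up to 0.0571). Leaving out the arrays that stood apart gave differences of -0.24 (adjusted p = 0.0929) and -0.10 (adjusted p = 0.103). The peroxisomal carrier Slc25a17 and the S-adenosylmethionine carrier Slc25a26 were not called in any comparison.

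Of the 4 carriers of iron and glutathione, all tested, both mitoferrins, which bring iron into the matrix for heme and iron-sulfur clusters, were called. Mitoferrin 1, Slc25a37 (probe set 10421172, chr14:69241848-69285544), best known from developing red cells, had the largest mean difference of the 33 carriers. Control signals were 451, 496 and 455 at ZT1, 525, 506 and 507 at ZT7, 629.5, 621 and 610.3 at ZT13, and 526, 502 and 533 at ZT19. TSR signals were 399, 436 and 429 at ZT1, 373, 372 and 293 at ZT7, 373, 283 and 409 at ZT13, and 423, 582 and 392 at ZT19. The TSR arrays were below all control arrays of the same time at ZT1, ZT7 and ZT13, while at ZT19 TSR replicate 2 lay above the control arrays and the other 2 below them. Over the day the control arrays had a lowest, median and highest signal of 451, 516 and 629.5, and the TSR arrays of 283, 395 and 582. The mean difference was -0.43 (SE 0.07, n = 12 against 12, adjusted p = 0.000326), control 1.35-fold above TSR. It was kept with each of the 24 arrays left out in turn (adjusted p from 4.90e-05 to 0.000929), and was -0.52 (adjusted p = 0.00227) without the arrays that stood apart.

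By time point, Slc25a37 differed by -0.82 (SE 0.13, n = 3 against 3, adjusted p = 0.00188) at ZT13, 1.77-fold, which was kept with each of the 24 arrays left out in turn (adjusted p from 0.000356 to 0.0123). At ZT7 the difference was -0.58 (SE 0.13, n = 3 against 3, adjusted p = 0.0107), 1.49-fold, and this call was lost without TSR ZT7 replicate 3 (adjusted p up to 0.0545). Without the arrays that stood apart the ZT13 difference was -0.82 (adjusted p = 0.00505) and the ZT7 difference -0.58 (adjusted p = 0.0559), and by the ordinary test of the probe set the adjusted p values were 0.118 at ZT13 and 0.106 at ZT7. The estimates at ZT1 and ZT19 were -0.15 (adjusted p = 0.548) and -0.18 (adjusted p = 0.357). Control liver had a rhythm with an amplitude of 0.20 on the log2 scale and a fitted peak at 13.2 h (adjusted p = 0.00762), a call that was kept with each of the 24 arrays left out in turn (adjusted p from 0.0046 to 0.0257). The fitted peak of TSR liver lay at 21.1 h with an amplitude of 0.25 (adjusted p = 0.215), and the test of the difference gave an adjusted p of 0.1, which passed only without TSR ZT13 replicate 3 or TSR ZT19 replicate 3. Summed erythroid markers were 4494 to 9714 on the control arrays and 5726 to 9974 on the TSR arrays, 2 of the 5 tested were called higher in mean level in TSR liver (13.4% of all probe sets) and 0 lower, and the part of red cell RNA in the Slc25a37 values was not tested.

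Mitoferrin 2, Slc25a28, the widely expressed form, had ZT13 signals of 376, 367 and 257 on the control arrays and 515, 475 and 507 on the TSR arrays. The TSR arrays were above all control arrays, of which replicate 3 was the lowest. TSR liver was higher by 0.60 (SE 0.17, n = 3 against 3, adjusted p = 0.0215), 1.52-fold. The call was lost without control ZT13 replicate 3 (adjusted p up to 0.113), and without the arrays that stood apart the difference was 0.60 (adjusted p = 0.0183). At the other times control signals were 292, 347 and 324 at ZT1, 271, 336 and 423 at ZT7 and 412, 427 and 451 at ZT19. TSR signals were 346, 342 and 432, 327, 333 and 384 and 379, 302 and 467 at the same times, and the treatments overlapped at each. At ZT13 the 2 mitoferrins lay on opposite sides of their controls. The glutathione carriers Slc25a39 and Slc25a40 were not called, and both were marked present on few arrays.

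**Figure D4:**
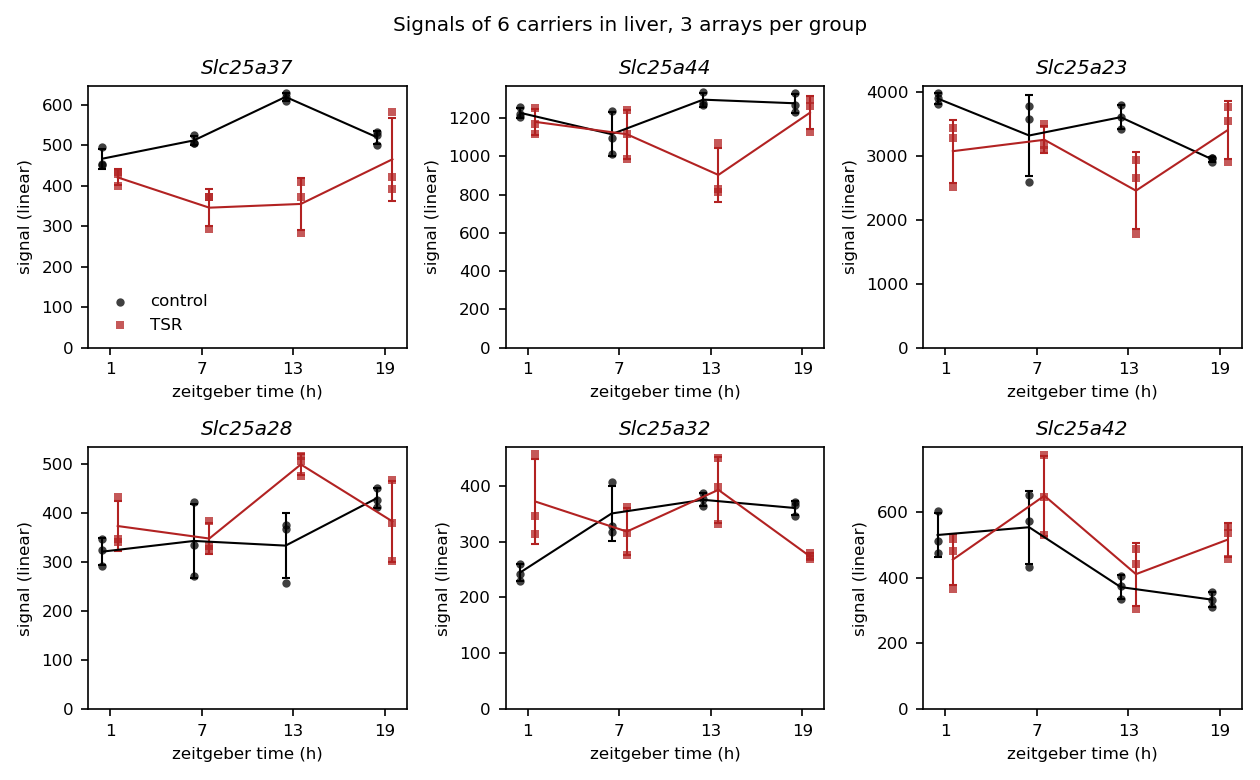
Signals (linear scale, y axis) of Slc25a37, Slc25a44, Slc25a23, Slc25a28, Slc25a32 and Slc25a42 on each of the 24 liver arrays against zeitgeber time (h, x axis), control as black circles and TSR as red squares, with means of 3 arrays joined by lines and SD as bars. At ZT13 the TSR arrays of Slc25a37, Slc25a44 and Slc25a23 lie below and those of Slc25a28 above the control arrays, and at ZT19 those of Slc25a42 lie above and those of Slc25a32 below.

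Among the other 3 carriers, Slc25a46 sits in the outer mitochondrial membrane and acts in its dynamics. Its control signals were 765, 849 and 849.8 at ZT1, 969.98, 981 and 990.04 at ZT7, 847, 753 and 821 at ZT13, and 786, 754 and 749.5 at ZT19. All 3 control arrays of ZT7 lay above those of the other times. The rhythm in control liver had an amplitude of 0.18 on the log2 scale and a fitted peak at 6.73 h (adjusted p = 0.0292), and it was lost without any of control ZT7 replicates 1 and 2 and control ZT19 replicates 2 and 3 (adjusted p up to 0.0909). In TSR liver the amplitude was 0.14 (adjusted p = 0.493), and without the arrays that stood apart the control rhythm had an adjusted p of 0.12. A second probe set of the gene gave a mean difference of 0.42 (adjusted p = 0.0442 with no filter), where the one used gave -0.04. With the mean of both probe sets in place of the brighter one the rhythm call was lost (adjusted p = 0.763). Slc25a27 (uncoupling protein 4) and Slc25a43 were not called in any comparison.

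In the 24 h fits, 7 of the 33 carriers were called in control liver and 1 in TSR liver. The 7 were Slc25a22, Slc25a42, Slc25a32, Slc25a35, Slc25a37, Slc25a46 and Slc25a10, 21.2% of the carriers against 12.8% of all probe sets tested, and with no adjustment 12 carriers had a p under 0.05. In TSR liver the call was Slc25a30, 3.03% against 2.60%, and 13 carriers had a p under 0.05 before adjustment. The rhythm differed between the treatments by the test of the difference for 0 of the 33 in limma's F-test, against 0.359% of all probe sets tested, with 7 at an unadjusted p under 0.05 and 0 by the ordinary F-test of each probe set. A joint fit of both treatments, which shares the spread between them, turned these counts round, with 3 rhythms called in control liver (Slc25a10, Slc25a22 and Slc25a42) and 8 in TSR liver (Slc25a5, Slc25a10, Slc25a11, Slc25a21, Slc25a22, Slc25a30, Slc25a33 and Slc25a37). The share of all probe sets called was not counted for this joint fit. The carriers' median amplitudes were 0.15 in control and 0.17 in TSR liver, beside 0.13 and 0.14 for all probe sets tested. Fitted peaks of the 7 control rhythms fell near ZT5 to ZT7 (Slc25a22, Slc25a42 and Slc25a46), near ZT13 (Slc25a32 and Slc25a37), near the end of the night (Slc25a35) and at 10.4 h (Slc25a10). The number called in control liver was 4 without any of control ZT1 replicates 1 to 3, control ZT7 replicate 2 and control ZT19 replicates 2 and 3, 14 without control ZT7 replicate 3, and it was also 4 without the arrays that stood apart (Slc25a22, Slc25a32, Slc25a37 and Slc25a42). The fit without the arrays that stood apart has no ZT19 value of control liver. In TSR liver it was 2 without TSR ZT19 replicate 3, which added Slc25a21. The number that differed between the treatments was 1 without TSR ZT13 replicate 3 (Slc25a37) and 2 without TSR ZT19 replicate 3 (Slc25a21 and Slc25a37).

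**Figure D5:**
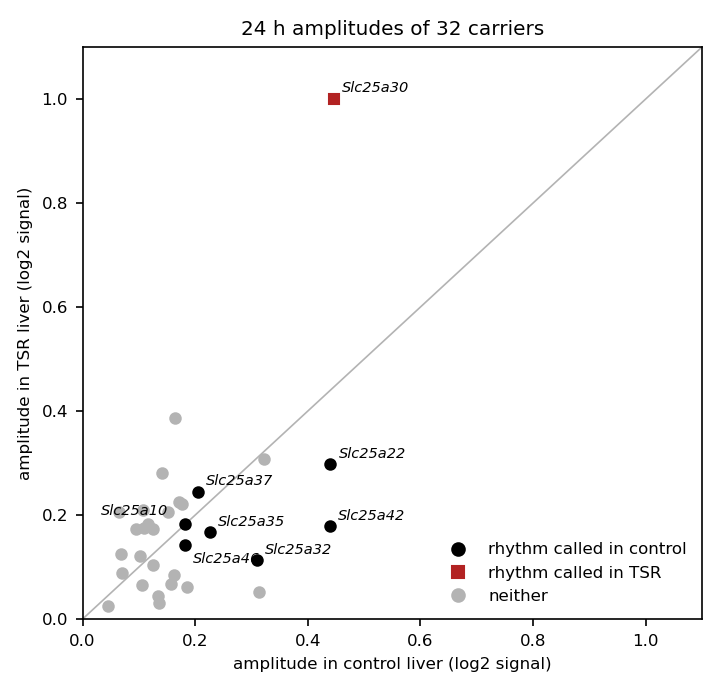
Amplitude of the fitted 24 h curve (log2 signal) in control liver (x axis) and TSR liver (y axis) for 32 of the 33 carriers tested, with the line of equal amplitude. Black circles are the 7 rhythms called in control liver and the red square is Slc25a30, called in TSR liver, at 0.45 and 1.00.

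Proteins of carrier import, at the outer membrane, between the membranes and at the inner membrane, were described beside them, with 11 of the 12 measured tested. In mean level, 6 of the 11 were higher in TSR liver and 0 lower, 54.5% against 26.7% of all probe sets tested, with a median difference of 0.15. Those with the smallest adjusted p were the small intermembrane chaperones Timm10 (difference 0.26, adjusted p = 0.0029), Timm13 (0.21, adjusted p = 0.00752) and Timm9 (0.16, adjusted p = 0.0171) and the outer membrane receptor Tomm20 (0.19, adjusted p = 0.0255). Timm8a1 and Tomm22 were the other 2. The inner membrane member Timm22, named after its values were seen, was not called in mean level (-0.01, adjusted p = 0.907). At single time points Timm9 was higher at ZT1 (0.39, adjusted p = 0.0347) and ZT13 (0.29, adjusted p = 0.0391). Timm13 was higher at ZT7 (0.43, adjusted p = 0.0143) and Timm10 at ZT13 (0.39, adjusted p = 0.027). From ZT1 to ZT19 the shares of the 11 called were 9.09%, 9.09%, 18.2% and 18.2%, against 2.80%, 14.3%, 18% and 14.7% of all probe sets tested. At ZT19 Tomm22, a receptor subunit, was higher by 0.62 (adjusted p = 0.00847) and Tomm20 by 0.48 (adjusted p = 0.0179), against control arrays that all stood apart and with the pancreatic-marker array among the TSR arrays. Genes other than the carriers were not refitted without those arrays. Members of the carrier family under other symbols numbered 9, of which 6 were tested. Mtch1, an outer membrane member, was lower in mean level (-0.21, adjusted p = 0.013) and at ZT13 (-0.45, adjusted p = 0.0162), and 0 of the 6 were higher in mean level. The share of the 6 called was 16.7% in mean level against 26.7% of all probe sets tested, and 16.7% against 18% at ZT13. The gene on the array as AI132487, now Slc25a47, had a rhythm in control liver with an amplitude of 0.55 (adjusted p = 0.0466). It was the 1 control rhythm called among the 6, 16.7% against 12.8% of all probe sets tested. In TSR liver its amplitude was 0.56 (adjusted p = 0.059), and the rhythms were not shown to differ (adjusted p = 0.8). Of 18 other transport genes of the mitochondrial membranes tested (19 measured), 2 were higher and 2 lower in mean level, 22.2% against 26.7% of all probe sets tested. Higher were Brp44l, now Mpc1, a subunit of the pyruvate carrier (0.41, adjusted p = 0.00202), and the porin Vdac3 (0.12, adjusted p = 0.0239). Ccdc109a, now Mcu, the calcium uniporter, was among the lower ones (-0.21, adjusted p = 0.0369).

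Promoters (250 bases before to 50 after the start) were in the RefSeq table for 32 of the 42 carriers. The E-box CACGTG, read on both strands, was in 7 of the 32 (21.9%), beside 8.09% of the 27025 genes of the table, each counted once. The 7 were Slc25a1, Slc25a13, Slc25a14, Slc25a15, Slc25a31, Slc25a33 and Slc25a36. The D-box TTATGTAA was in 0 of the 32 (1.11% of the genes), AGGTCA in 3 (Slc25a34, Slc25a39 and Slc25a45, 9.38% against 18.1%), the glucocorticoid response element in 0 (0.0111% of the genes) and TGACGTCA in 2 (Slc25a25 and Slc25a36, 6.25% against 2.03%). Since the E-box was the most frequent of the 5 motifs among the 32 carriers, the letters around it are shown for the 4 tested carriers that hold it, with the motif in capitals.
Slc25a1 E-box: cgctccagacgCACGTGtctctaaactgc
Slc25a13 E-box: cacagtctgagtCACGTGtcctggcccctc
Slc25a15 E-box: cgccctgccgcaCACGTGccgcggctccgg
Slc25a33 E-box: cccggcctccgcCACGTGacggccgcgcgc
These windows lie in GRCm38.p6, all on the minus strand, with Slc25a1 at chr16:17928441-17928469, Slc25a13 at chr6:6217281-6217310, Slc25a15 at chr8:22398337-22398366, Slc25a33 at chr4:149774258-149774287. Of these 4 carriers only Slc25a33 was called in a comparison of the treatments, at ZT7 and for an effect that differed between time points, and none was called rhythmic in control liver. Of the 7 carriers rhythmic in control liver, 3 had a promoter in the table, and 0 of these 3 held the E-box.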

How the data were processed

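Livers of 24 mice were profiled on Affymetrix Mouse Gene 1.0 ST arrays. The values the authors deposited are linear signal intensities after normalization between arrays with d-Chip. Neither the version and steps of d-Chip, nor the genome build, nor a joint or separate treatment of liver and adipose arrays is stated in the sources. The authors also deposited presence calls (0 or 1 per probe set and array, an other kind of value), which were used only to say on how many arrays a carrier was marked present. Not used were 24 value columns of arrays labelled WAT, 24 columns of detection p, 8 columns of calls per group and the authors' lists of rhythmic genes. The liver values of the 2 deposited tables were identical (largest difference 0).

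Of 28815 probe sets, 23726 had 1 symbol, 535 several and 4554 none, and only those with 1 symbol were used. Signals (none under 1, 0 values changed) were transformed to log2 in R 4.3.3, and those whose mean over the livers exceeded the overall median of 97.4 were tested with limma 3.58.1. Mean level, each time point and the difference of the TSR effect between time points came from a model of 8 group means over 24 arrays, rhythms from a cosine and a sine of 24 h within each treatment, and the difference in rhythm from the treatment by cosine and sine terms. Benjamini-Hochberg adjustment ran over the 12538 probe sets, with a threshold of 0.05. They measure the spread between mice. Results and figures were made with the data.table package (1.17.8), Python 3.11.15, pandas 2.3.3, numpy 2.4.6 and matplotlib 3.10.9. The fits were also run on simulated data with 200 changed probe sets. For a change of 0.5 on the log2 scale they recovered 91% in mean level, 84% for a control rhythm and 42% at ZT13. For an effect differing between time points the share was 6%, and 75.5% for a change of 1. The simulated noise was independent, so arrays that stood apart were not imitated.

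The members, role groups, companion lists and tests were chosen with earlier results of these data known, so no list is independent evidence. The symbols AI132487 (Slc25a47) and AU042651 (Slc25a48) were added to the companions after their values had been seen. All carriers entered the counts, 1 carrier and 1 companion gene are not reported here by name, every array was given for Slc25a30 and for the called carriers with up to 3 largest changes in each direction of a comparison, and companions were named where called, up to 4 each by adjusted p. Replicate numbers did not pair the arrays (4 of 12 same-numbered pairs correlated above 0.1). The alternatives were the filter, the scaling, a pseudocount of 16, a replicate block, an ordinary test per probe set, other rhythm fits, the mean of all probe sets of a gene, and left-out arrays.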

Additional observations from a re-analysis of the deposited data

Results flagged for a closer look

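For 8 carriers the TSR effect was not the same at all time points, by the F-test of its differences between ZT1, ZT7, ZT13 and ZT19. The value given first is the distance on the log2 scale between the largest and the smallest of a carrier's 4 effects (TSR minus control), and the effects follow from ZT1 to ZT19. For Slc25a32 (folate/FAD) it was 0.98 (adjusted p = 0.0127), with effects that had values of 0.59, -0.14, 0.06 and -0.40 in that order. For Slc25a18 (glutamate) it was 0.97 (adjusted p = 0.0361), with values of 0.30, -0.32, 0.54 and -0.43 in that order. Slc25a21 (oxodicarboxylates) had 0.87 (adjusted p = 0.042), with values of 0.36, -0.51, -0.37 and -0.03 in that order. Slc25a33 (pyrimidine nucleotides) had 0.81 (adjusted p = 0.0397), with values of 0.10, 0.44, 0.08 and -0.38 in that order. Each of these 4 had effects on both sides of 0.

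Slc25a37 (mitoferrin 1) had a distance of 0.67 (adjusted p = 0.0356), and its effects, with values of -0.15, -0.58, -0.82 and -0.18 in that order, were all below 0. Slc25a44 (branched-chain amino acids) had 0.53 (adjusted p = 0.0386), with values of -0.06, -0.00, -0.53 and -0.06 in that order. For Slc25a20 (acylcarnitines) it was 0.49 (adjusted p = 0.0177), with values of 0.20, -0.23, 0.26 and -0.11 in that order. For Slc25a16 it was 0.36 (adjusted p = 0.0498), with values of 0.11, -0.26, -0.14 and -0.13 in that order.

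The calls of Slc25a32 and Slc25a20 were kept with each array left out in turn, while those of Slc25a18, Slc25a21, Slc25a33, Slc25a37, Slc25a44 and Slc25a16 were lost without any of 12, 17, 12, 12, 16 and 18 of the 24 arrays. None of the 8 was called without the 5 arrays that stood apart, where the test compares ZT1, ZT7 and ZT13 alone and the distances were 0.31 to 0.88. The causes were not tested.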

How the results depend on the processing

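No called difference of a single carrier changed sign under the alternatives run, which did not cover the companion genes. With no filter on dim probe sets, 1 carrier was lower in mean level (4 with it), 0 were called at ZT1, 1 at ZT7, 0 at ZT19, 2 for a TSR effect that differed between time points and 3 for a control rhythm. With a mean signal above 200, 1 was called at ZT1 and 2 at ZT7. Quantile scaling, a pseudocount of 16 and the mean of all probe sets of a gene each left 1 at ZT1, and the last also 1 at ZT19. Without the 5 arrays that stood apart, 2 were higher in mean level, 0 were called at ZT1, 0 at ZT7, 0 for the effect between time points and 4 for a control rhythm. The ordinary test per probe set called 1 lower in mean level, 0 at ZT1, 0 at ZT7, 0 at ZT13, 3 at ZT19 and 4 for the effect between time points. With no curve, 16 differed between time points in control liver and 8 between the treatments in their time course, which is the test of the effect between time points again. A joint fit of both treatments called 3 rhythms in control and 8 in TSR liver, where separate fits called 7 and 1. For the no-curve and joint fits, and for the other alternatives except the one with no filter, the share of all probe sets called was not counted. Whether these counts moved more than those of all probe sets was not tested. With the replicate number as a block the control rhythms were 4 (7 without), and the other counts stayed within 1.5 times, among them 3 at ZT19 and 10 for the effect between time points. Leaving out each array in turn gave 0 to 1 carriers higher and 1 to 5 lower in mean level, 0 to 2 at ZT1, 0 to 5 at ZT7, 2 to 8 at ZT13, 0 to 3 at ZT19, 2 to 13 for the effect between time points, 4 to 14 control rhythms, 1 to 2 TSR rhythms and 0 to 2 differences in rhythm. Some settings bring fewer arrays or more probe sets tested, and the causes of the moved counts were not tested. Of the values for single carriers under the alternatives, 1025 kept their side of the threshold, 326 lost the call and 1 gained it. The 1025 also count comparisons of Slc25a30 that were not called in the main fit and stayed so. The calls of Slc25a37 in mean level, of the control rhythms of Slc25a22 and Slc25a42 and of the TSR rhythm of Slc25a30 were kept in every alternative. The filter and 3 arrays a group limit what can be said of the 9 dim carriers.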
